A study of Mus musculus with 64 samples.

Results

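The mitochondrial ribosomal protein genes are the nuclear genes named Mrpl (large subunit) and Mrps (small subunit). Members were chosen by symbol alone: every gene entry whose identifier carries a symbol of the form Mrpl or Mrps followed by a number and at most 1 letter from a to c, pseudogenes excluded, with a mean above 1 CPM (the deposited, scaled read value explained in the next paragraph) in at least 1 tissue. The rule gave 78 genes of 36332 distinct gene identifiers, 49 of the large and 29 of the small subunit, and all 78 also passed the filter on low values of each test.

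Polyadenylated RNA of mice aged 5 or 20 months was sequenced from 3 tissues: liver, skeletal muscle and omental adipose tissue. Knockout (KO) mice were labelled MycKO and came from a cross of a B6.129 line with the allele Gt(ROSA)26Sortm1(cre/ERT2)Tyj/J, a tamoxifen-activated Cre recombinase at the Rosa26 locus, and the floxed line B6.129-B6.129S6-Myctm2Fwa/Mmjax, and wild-type (WT) mice were labelled C57/B6. Both were labelled as treated with tamoxifen in corn oil, 75 mg/kg by intraperitoneal injection on 5 days, from weaning and a weight of 15 g, so the drug was shared by all 12 groups. Strain and loss of Myc cannot be told apart, because all KO mice were of the cross and all WT mice of C57/B6. At 5 months each genotype gave 6 libraries per tissue, except for 4 of KO muscle, and at 20 months each gave 5, which makes 64 libraries. Library codes are those of the labels, with K or W for the genotype and F, L or S for adipose tissue, liver or muscle. Codes of 20-month mice hold the number 18, while their labels give 20 months.

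Depth was 15.4 to 28.5 M reads on genes per library (M, mega). A deposited CPM is a read count multiplied by a factor per library, and columns summed to 0.529 to 1.64 M: 0.529 to 0.753 M for the adipose, 1.18 to 1.64 M for the liver and 1.08 to 1.32 M for the muscle libraries. The member with the fewest reads in any library had 83, and the median over members and libraries was 568. In 5-month adipose tissue the mean level of Myc was 17.7 ± 5.11 CPM (SD, n = 6) for WT and 5.76 ± 2.91 CPM (n = 6) for KO mice, and the KO mean was below the WT mean in each tissue and age. The genotypes overlapped in 20-month adipose tissue and in muscle at both ages. In 20-month muscle Myc was at 5.98 ± 3.83 CPM (1.75 to 10.2) in KO and 7.91 ± 3.21 CPM (4.97 to 13.1) in WT libraries. Adipoq, Alb and Myh4 marked the labelled tissues. Some libraries also held transcripts of other tissues. Epididymal markers were found in 4 adipose libraries of 5-month mice (K5F4284, K5F5218, K5F5248, W5F5299) and in the muscle library W5S5299 (131 CPM). Fast-muscle markers were found in several 5-month adipose libraries, and hepatocyte markers in the muscle library W18S42 (Alb at 1970 CPM). The summed hepatocyte list was also at 480 to 4890 CPM in all 5-month adipose libraries. Alb was there at 12.4 to 52.7 CPM in WT and 1.53 to 215 CPM in KO libraries, so that sum came mostly from other genes of the list. The highest adipose level of Alb was 514 CPM in K18F27, of a 20-month mouse. Xist marked 12 libraries, all of 5-month mice and 2 per group, while the other 52 had Y-linked transcripts. No label tied libraries to separate litters or batches, so p-values measure the spread between these samples.

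Mitochondrial ribosomes translate the few messenger RNAs of mitochondrial DNA, all of which encode subunits of the oxidative phosphorylation complexes. Their RNA comes from mitochondrial DNA, but all of their proteins are nuclear-encoded, made in the cytosol and imported. Part of these proteins have bacterial counterparts, and the others exist only in mitochondrial ribosomes. Myc is known to promote mitochondrial biogenesis, and genes of the mitochondrial ribosome are counted among those that respond to it.

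Upstream sequences are shown for members with an E-box, the CACGTG element bound by Myc and Max, and for members that fell with age in WT adipose tissue and in WT liver, as far as the RefSeq window begins at the annotated gene start. Each sequence holds the 250 bases before the start, 5′ to 3′ on the gene's strand, in RefSeq's build GRCm38.p6. Capitals mark matches to the E-box, to the SP1 GC box GGGCGGG or to the ETS (GABPA) core CCGGAAGT, on either strand.

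Mrpl20, chr4:155802628-155802877, plus strand, with an E-box:
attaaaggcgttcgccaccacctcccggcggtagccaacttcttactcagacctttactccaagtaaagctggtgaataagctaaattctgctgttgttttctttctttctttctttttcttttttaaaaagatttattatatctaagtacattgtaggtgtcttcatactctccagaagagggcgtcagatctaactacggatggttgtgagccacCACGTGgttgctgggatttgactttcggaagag
Mrpl37, chr4:107066867-107067116, minus strand, with an E-box and a GC box:
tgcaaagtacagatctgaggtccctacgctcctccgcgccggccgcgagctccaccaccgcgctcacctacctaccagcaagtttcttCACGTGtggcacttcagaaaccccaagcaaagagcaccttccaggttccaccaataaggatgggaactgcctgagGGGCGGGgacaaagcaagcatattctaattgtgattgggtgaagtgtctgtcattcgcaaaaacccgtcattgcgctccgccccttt
Mrps18c, chr5:100798509-100798758, plus strand, with an E-box that adjoins an ETS core:
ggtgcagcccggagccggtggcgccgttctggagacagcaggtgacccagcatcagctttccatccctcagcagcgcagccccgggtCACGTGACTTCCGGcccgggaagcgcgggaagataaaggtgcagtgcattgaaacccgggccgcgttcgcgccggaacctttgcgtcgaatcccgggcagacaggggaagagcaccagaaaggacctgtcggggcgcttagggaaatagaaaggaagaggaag
Mrpl51, chr6:125191950-125192199, plus strand, with an ETS core and a GC box:
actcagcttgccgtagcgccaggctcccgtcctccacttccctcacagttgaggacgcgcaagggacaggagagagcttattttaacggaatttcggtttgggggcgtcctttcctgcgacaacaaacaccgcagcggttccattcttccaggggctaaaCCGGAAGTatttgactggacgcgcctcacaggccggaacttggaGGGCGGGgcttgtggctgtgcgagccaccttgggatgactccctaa
Mrps26, chr2:130563507-130563756, plus strand, with an ETS core:
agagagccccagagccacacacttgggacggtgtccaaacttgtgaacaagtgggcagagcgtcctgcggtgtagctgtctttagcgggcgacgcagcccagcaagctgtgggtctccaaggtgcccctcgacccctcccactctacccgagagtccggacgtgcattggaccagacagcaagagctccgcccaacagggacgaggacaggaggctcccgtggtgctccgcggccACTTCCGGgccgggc

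RefSeq windows of 300 bases (250 before and 50 after the start) were found for 69 of the 78 members and were searched on both strands. The E-box was present for 5 members (7.25%; Mrpl2, Mrpl20, Mrpl36, Mrpl37 and Mrps18c), against 8.09% of 27025 genes with a window. The NRF1 core GCGCATGCG was present for 7 members (10.1%, against 1.95% of all genes) and the YY1 core AAGATGGCG for 8 (11.6%, against 1.64%). The ETS core was present for 12 members (17.4%, against 4.31%) and the GC box for 29 (42%, against 27.9%). NRF1, GABPA and YY1 are nuclear factors known to act on genes of the mitochondrion. Among the 12470 tested genes with a window, the shares were 11.1% for the E-box, 3.48% for NRF1, 2.98% for YY1, 7.67% for ETS and 47.2% for the GC box. Such matches are descriptions of letters, and binding was not measured.

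Levels of different genes are compared per kilobase (kb) of exon, using union exon lengths of protein-coding transcripts. These levels rank genes within a tissue. Between tissues they depend on the deposited scale, whose column sums were lowest for adipose libraries. In muscle the highest members were Mrpl42 (251 CPM per kb), Mrps21 (161) and Mrpl33 (125). In adipose tissue they were Mrpl33 (70.5 CPM per kb), Mrps21 (66.1) and Mrps6 (65.9), and in liver Mrpl12 (118), Mrpl52 (93.6) and Mrpl34 (92.1). The median member of the large subunit had 12.4 CPM per kb in adipose tissue, 30.6 in the liver and 25.9 for muscle. For the small subunit the medians were 14.2, 23 and 21. Mrps36, known also as a component of the alpha-ketoglutarate dehydrogenase complex, had 56.8 CPM per kb in muscle, 14.0 in liver and 14.6 in adipose tissue. Mrpl58, a peptidyl-tRNA hydrolase built into the large subunit, had 11.6, 14.5 and 6.46. Mrps18a and Mrps30, which sit in the large subunit in spite of their names, were counted by symbol with the small subunit.

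The level of a subunit in a library was taken as the mean of log2(CPM + 1) over its genes. In adipose tissue the large-subunit level averaged 4.57 ± 0.293 (SD, n = 6) in WT and 4.32 ± 0.494 (n = 6) in KO mice at 5 months, and 4.05 ± 0.0759 (n = 5) and 4.09 ± 0.282 (n = 5) at 20 months. In liver the 4 groups averaged 5.18 to 5.40 and in muscle 5.24 to 5.49. The subunits moved together: the large minus the small level stayed between 0.0129 and 0.148 over all adipose libraries, while the large-subunit level itself ran from 3.74 to 5.18. It stayed between 0.222 and 0.351 in liver and 0.185 and 0.257 in muscle. Single libraries shifted most members at once. K5F5118 was the highest of its group for 70 of 78 members, K18F27 for 74 and W18S42 for 66, and W5F5299 was the lowest of its group for 69 of 78.

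**Figure D1:**
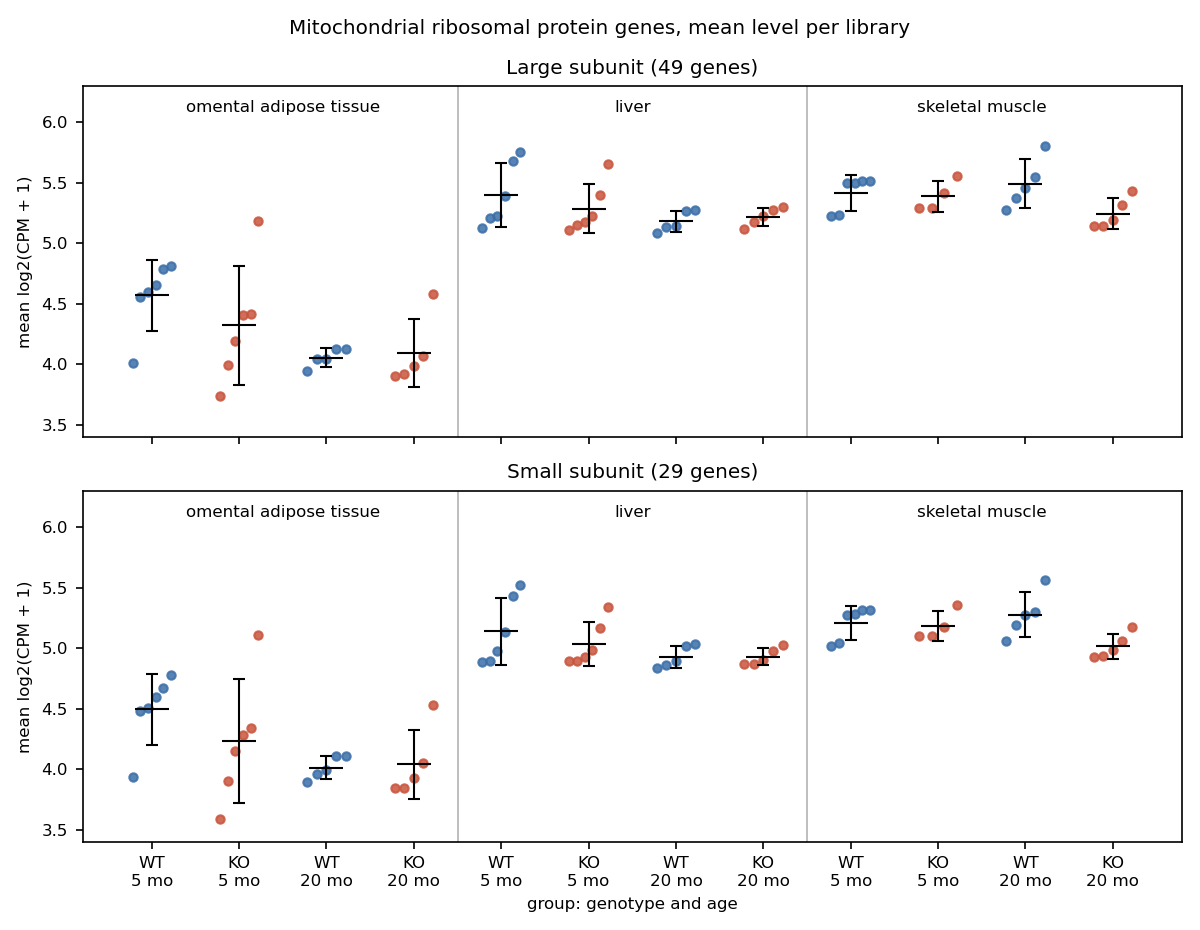
Mean log2(CPM + 1) of the 49 large-subunit genes (top) and 29 small-subunit genes (bottom) in each library; columns are the 12 groups by tissue, age (mo, months) and genotype, points are libraries, and bars give the mean and 1 SD. Both panels show a similar pattern of libraries, with large-subunit means of 4.05 to 4.57 in adipose groups and of 5.18 to 5.49 in liver and muscle groups. Values are on the deposited scale, whose column sums were lower for adipose libraries, and the order of tissues changed with rescaling to equal totals.

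Tissues were compared in WT mice at 5 months, with 6 libraries each. Mrpl42 was the member with the largest rise in muscle, and Mrps36 also stood high there. Mrps6 was the highest in adipose tissue relative to both others, and Mrpl12, an activator of mitochondrial RNA polymerase as well as a ribosomal protein, was higher in liver than in adipose tissue. These gene-specific differences held when every library was rescaled to the same total. The joint level of all members relative to adipose tissue did not, as shown after the single genes.

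Mrpl42 had 163, 177 and 208 CPM (lowest, median and highest) in muscle, 36.7, 43.6 and 55.2 in liver and 15.0, 29.7 and 37.3 in adipose tissue. Muscle did not overlap either tissue, with log2 fold changes of 2.03 (SE 0.184) against liver and 2.75 (SE 0.184) against adipose tissue (limma adjusted p = 5.23e-09 and 9.91e-11). Rescaled to equal totals, they were 2.28 and 1.90. Mrps36 had 29.6, 46.9 and 57.5 CPM in muscle, 6.65, 11.6 and 16.3 in liver and 5.18, 12.7 and 15.8 in adipose tissue. It was higher in muscle by 1.89 (SE 0.238) against liver and 1.83 (SE 0.238) against adipose tissue (limma adjusted p = 5.92e-07 and 1.19e-06). Liver and adipose tissue overlapped for Mrps36 (log2 fold change 0.06, adjusted p = 0.843), although after rescaling adipose tissue was higher by 1.10 (adjusted p = 9.40e-05).

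Mrps6, which has a bacterial counterpart in the small subunit, had 20.6, 49.3 and 106 CPM in adipose tissue, 10.9, 13.0 and 16.6 in liver and 12.4, 14.1 and 20.0 in muscle. Adipose values lay above every liver and muscle value and spread widely among themselves, with W5F5299 lowest and W5F5277 highest. The log2 fold change was 1.81 (SE 0.274) against liver and that of muscle against adipose tissue was -1.62 (SE 0.274; limma adjusted p = 7.80e-06 and 2.90e-05). Mrpl12 had 126, 160 and 221 CPM in liver, 92.1, 131 and 133 in muscle and 23.4, 44.4 and 56.1 in adipose tissue. Adipose tissue was lower than liver, at -2.04 (SE 0.202, limma adjusted p = 2.52e-08), or -0.92 after rescaling (adjusted p = 0.000122). Liver and muscle overlapped for Mrpl12. The change of muscle against liver was -0.49 (adjusted p = 0.0362), or -0.22 after rescaling (adjusted p = 0.286).

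Over all members, 22 were higher and 24 lower in muscle than in liver, against 73.1% of all 14087 genes called in either direction. Adipose tissue had 2 members higher and 59 lower than liver (69.7% of all genes called), and muscle had 62 higher and 2 lower than adipose tissue (68.9% of all genes called). The share of members called was thus 59.0%, 78.2% and 82.1% of 78. Rescaled to equal totals, the splits became 36 higher and 14 lower, 35 higher and 7 lower, and 20 higher and 20 lower, in the same order. Shares of all genes called are not given here for the rescaled fits or for calls under both scalings. Those counts therefore cannot be read as particular to the members. Rescaling shifted all genes: the median over all genes for adipose tissue against liver went from 0.03 to 0.999. Relative to that median, the median member was at -0.87 with the deposited values and at -0.75 after rescaling. For muscle against adipose tissue the same relative value was 0.91 and 0.80. For muscle against liver it was -0.02 and 0.04. Called in the same direction under both scalings were 22 higher and 14 lower for muscle against liver, 2 higher and 7 lower for adipose tissue against liver, and 20 higher and 2 lower for muscle against adipose tissue. Among them, the largest falls of muscle against liver were Mrps2 (-1.48, SE 0.176), Mrpl20 (-1.11, SE 0.164) and Mrpl10 (-1.05, SE 0.142), and further rises were Mrps28 (1.20, SE 0.208), Mrpl23 (1.18, SE 0.225) and Mrps21 (1.02, SE 0.233). Against adipose tissue, muscle was also higher in Mrps28 (1.84), Mrpl18 (1.74) and Mrpl37 (1.73) and lower in Mrpl20 (-0.92). Adipose tissue was lower than liver in Mrpl15 (-1.98), Mrps31 (-1.78), Mrpl34 (-1.71) and Mrpl43 (-1.63) and higher in Mrpl33 (0.41). In these bulk samples, fewer cells of a type and less RNA per cell cannot be told apart.

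**Figure D2:**
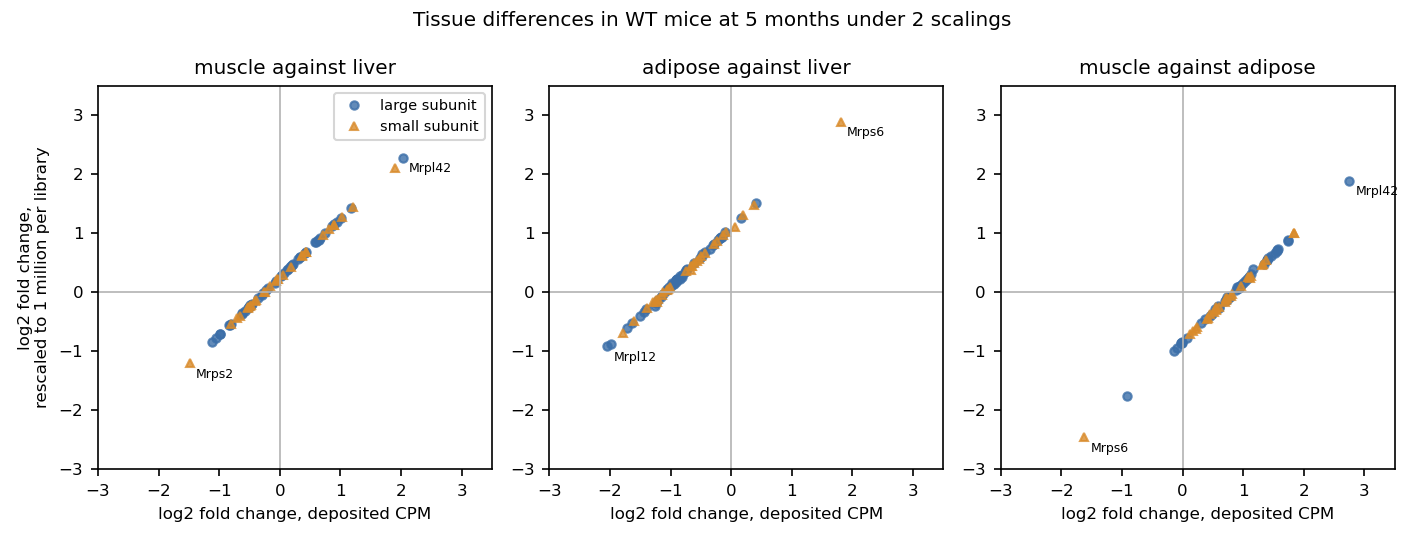
Log2 fold change of each member between tissues of WT mice at 5 months, from deposited CPM (x axis) and from values rescaled to equal totals (y axis); circles are large-subunit and triangles small-subunit genes, with the highest and the lowest gene named. The genes keep nearly the same order while all points shift together up or down: for adipose tissue against liver the median member is at -0.84 on the x axis and 0.25 on the y axis.

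KO mice were compared with WT mice in each tissue at each age. No member passed limma's test with Benjamini-Hochberg adjustment over all genes in any of the 6 comparisons. Of all genes tested, those called in either direction were 0.105% in adipose tissue at 5 months and 0% at 20 months, 0.0696% and 0.0232% in liver, and 0% and 0.0302% in muscle. In adipose tissue at 5 months 76 of 78 members were lower in KO mice (48 of 49 large and 28 of 29 small; median log2 fold change -0.24, against -0.04 over all genes, of which 56.4% were lower). In muscle at 20 months 78 of 78 were lower (median -0.25, against -0.03). In the other 4 comparisons the median member was between -0.09 and 0.03.

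Mrpl12 had the largest difference in 5-month adipose tissue, with 16.9, 25.3 and 47.7 CPM (lowest, median and highest) in KO and 23.4, 44.4 and 56.1 in WT mice. The groups overlapped, chiefly through K5F5118, the KO library at 47.7, and W5F5299, the WT library at 23.4. The log2 fold change was -0.59 (SE 0.228, unadjusted p = 0.0173, limma adjusted p = 0.341). The others with the smallest p were Mrpl20 (-0.52, adjusted p = 0.329), Mrps28, a small-subunit protein (-0.53, adjusted p = 0.340), and Mrps5 (-0.41, adjusted p = 0.344). In all, 10 members (12.8%) had an unadjusted p under 0.05, against 11.8% of all genes, and no member separated the groups without overlap (0.203% of all genes did, lower in KO). The 5 members with an E-box were at -0.52 (Mrpl20), -0.34 (Mrpl37), -0.33 (Mrpl36), -0.33 (Mrpl2) and -0.22 (Mrps18c) here, and Mrpl12, whose window held none of the searched motifs, was at -0.59.

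K5F5118 and K5F5218 marked the extremes of the KO group, with large-subunit levels of 5.18 and 3.74. Without K5F5118 all 78 members were lower in KO mice, with a median of -0.42 and a smallest adjusted p of 0.0589. Without K5F5218 the median was -0.12. Over 8 of 8 adipocyte markers measured, the summed level was 8618 to 30351 CPM in KO and 15603 to 30538 in WT libraries, and over 8 of 8 macrophage markers 952 to 3939 and 1187 to 2030, and their part in the result was not tested. Summed brown-adipocyte markers were at 173 CPM in K5F5118 and at 5.47 to 39.1 in the other 5-month adipose libraries. Epididymal markers were above 10 CPM in 3 KO libraries and 1 WT library, at 958 to 6487 CPM. With those 4 libraries left out, 51 of 78 members were lower and the median was -0.07, with none called. Without the libraries with Xist, which include K5F5118, Mrpl34 (-0.82), Mrps5 (-0.68) and Mrps27 (-0.54) were called lower, 3 of 78 members against 2.34% of all genes lower.

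Libraries also differed in how level related to transcript length. For each library, the slope of log2 level, relative to the tissue mean, on log2 exon length was taken over genes that are no members. A negative slope means that shorter genes stood higher. Members are short, with a median exon length of 1380.5 bases against 3321 for all genes above 1 CPM. In 5-month adipose tissue the slope was -0.0954 ± 0.132 (SD, n = 6) in WT and -0.0889 ± 0.234 (n = 6) in KO libraries, from -0.492 in K5F5118 to 0.198 in K5F5218. With this slope as a covariate, an alternative chosen after seeing the data, the KO median was -0.23 with 76 of 78 lower. The mean slopes of the genotypes were close, so the covariate could hardly move this median. Mrpl12 (-0.57, SE 0.118, limma adjusted p = 0.0276), Mrpl28 (-0.56, SE 0.133, adjusted p = 0.0476), Mrps28 (-0.52, SE 0.107, adjusted p = 0.0287) and Mrps14 (-0.46, SE 0.0888, adjusted p = 0.0186) were then called lower, 4 of 78 members (5.13%) against 0.707% of all genes lower.

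At 20 months the members of adipose tissue were spread around 0 in KO against WT. Mrpl12 had 20.1, 20.5, 20.9, 21.5 and 40.6 CPM in KO and 22.1, 23.2, 25.3, 25.6 and 26.1 in WT mice, so that K18F27 lay above and the other 4 KO libraries below the WT range. The median member was at 0.03, and 31 of 78 were lower. In each subunit the members with the smallest p were Mrpl45 (0.32) and Mrpl47 (-0.19), and Mrps17 (0.18) and Mrps5 (-0.10), all with an adjusted p of 1 in limma's test. The change of the KO effect between ages was positive for 76 of 78 members (median 0.28), but no member and 0% of all genes passed. Mrps14 (0.59, SE 0.323) and Mrps28 (0.56, SE 0.304) had the smallest p of the small subunit, and Mrpl37 (0.39, SE 0.215) and Mrpl45 (0.58, SE 0.323) of the large subunit, with an adjusted p of 0.998 each.

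In muscle at 20 months, Mrps12, a decoding-site protein of the small subunit, had 20.2, 21.8, 21.9, 24.7 and 28.4 CPM in KO and 28.2, 32.2, 33.2, 34.4 and 34.9 in WT mice. Only the highest KO library and the lowest WT library overlapped. Its log2 fold change was -0.47 (SE 0.102, unadjusted p = 0.000185, limma adjusted p = 0.181), and DESeq2 called it (adjusted p = 0.0240). Mrpl12 had 86.8, 92.5, 95.4, 112 and 128 CPM in KO and 108, 130, 132, 144 and 178 in WT mice (-0.42, SE 0.137, adjusted p = 0.295). Mrpl34 (-0.47) and Mrps31 (-0.37) had the same adjusted p. At an unadjusted p under 0.05 were 39 of 78 members (50%; 21 large, 18 small), against 13.8% of all genes, and 1 member, Mrpl24 (-0.24, named after its values were seen), had groups that did not overlap (1.28%, against 1.71% of all genes lower in KO without overlap).

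The WT library W18S42 had the highest large-subunit level of its group (5.80, against 5.28 to 5.55 in the other 4) and summed hepatocyte markers of 2846 CPM, against a group median of 4.41. Summed adipocyte markers were 1112 to 1894 CPM in KO and 849 to 1142 in WT libraries, brown-adipocyte markers 435 to 597 and 576 to 866, macrophage markers 106 to 254 and 51.1 to 147, and T-cell markers 1.78 to 3.71 and 0.338 to 1.46, and their part was not tested. The brown-adipocyte list includes genes that muscle also expresses, such as Cox7a1 and Cox8b, and its gene Ucp1 was at 0 in all of these libraries. Without W18S42, 75 of 78 members were lower and the median was -0.18. The length slope was 0.0790 ± 0.0313 (SD, n = 5) in KO and -0.0008 ± 0.0934 (n = 5) in WT libraries, and with it as a covariate 68 of 78 were lower, with a median of -0.13. At 5 months in muscle, 51 of 78 were lower (median -0.03), led by Mrpl39 (-0.21), Mrpl50 (-0.21), Mrps2 (-0.18) and Mrps18a (-0.18) by the smallest p in each subunit, none of which passed. The difference between ages in muscle was negative for 73 of 78 members (median -0.23), and again no member and 0% of all genes passed. Mrps12 (-0.42, SE 0.145), Mrps18c (-0.54, SE 0.205), Mrpl34 (-0.57, SE 0.215) and Mrpl20 (-0.49, SE 0.224) had the smallest p of their subunits, at a limma adjusted p of 0.999.

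In liver the KO effect on the median member was -0.09 at 5 months (69 of 78 lower) and 0.01 at 20 months (38 lower). Mrps6 was the lowest at 5 months (-0.44, SE 0.162, adjusted p = 0.537), and Mrpl32 (-0.28), Mrpl34 (-0.30) and Mrps15 (-0.25) were the others with the smallest p of their subunits. At 20 months Mrps26 (0.49, SE 0.178, adjusted p = 0.750), Mrpl54 (0.44) and Mrps7 (0.30) were higher and Mrpl1 (-0.30) lower without passing. The difference between ages had a median of 0.14 with no member and 0% of all genes called, and Mrpl54 (0.59) and Mrpl36 (0.37), and Mrps26 (0.44) and Mrps7 (0.38), had the smallest p of their subunits, at a limma adjusted p of 0.991.

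**Figure D3:**
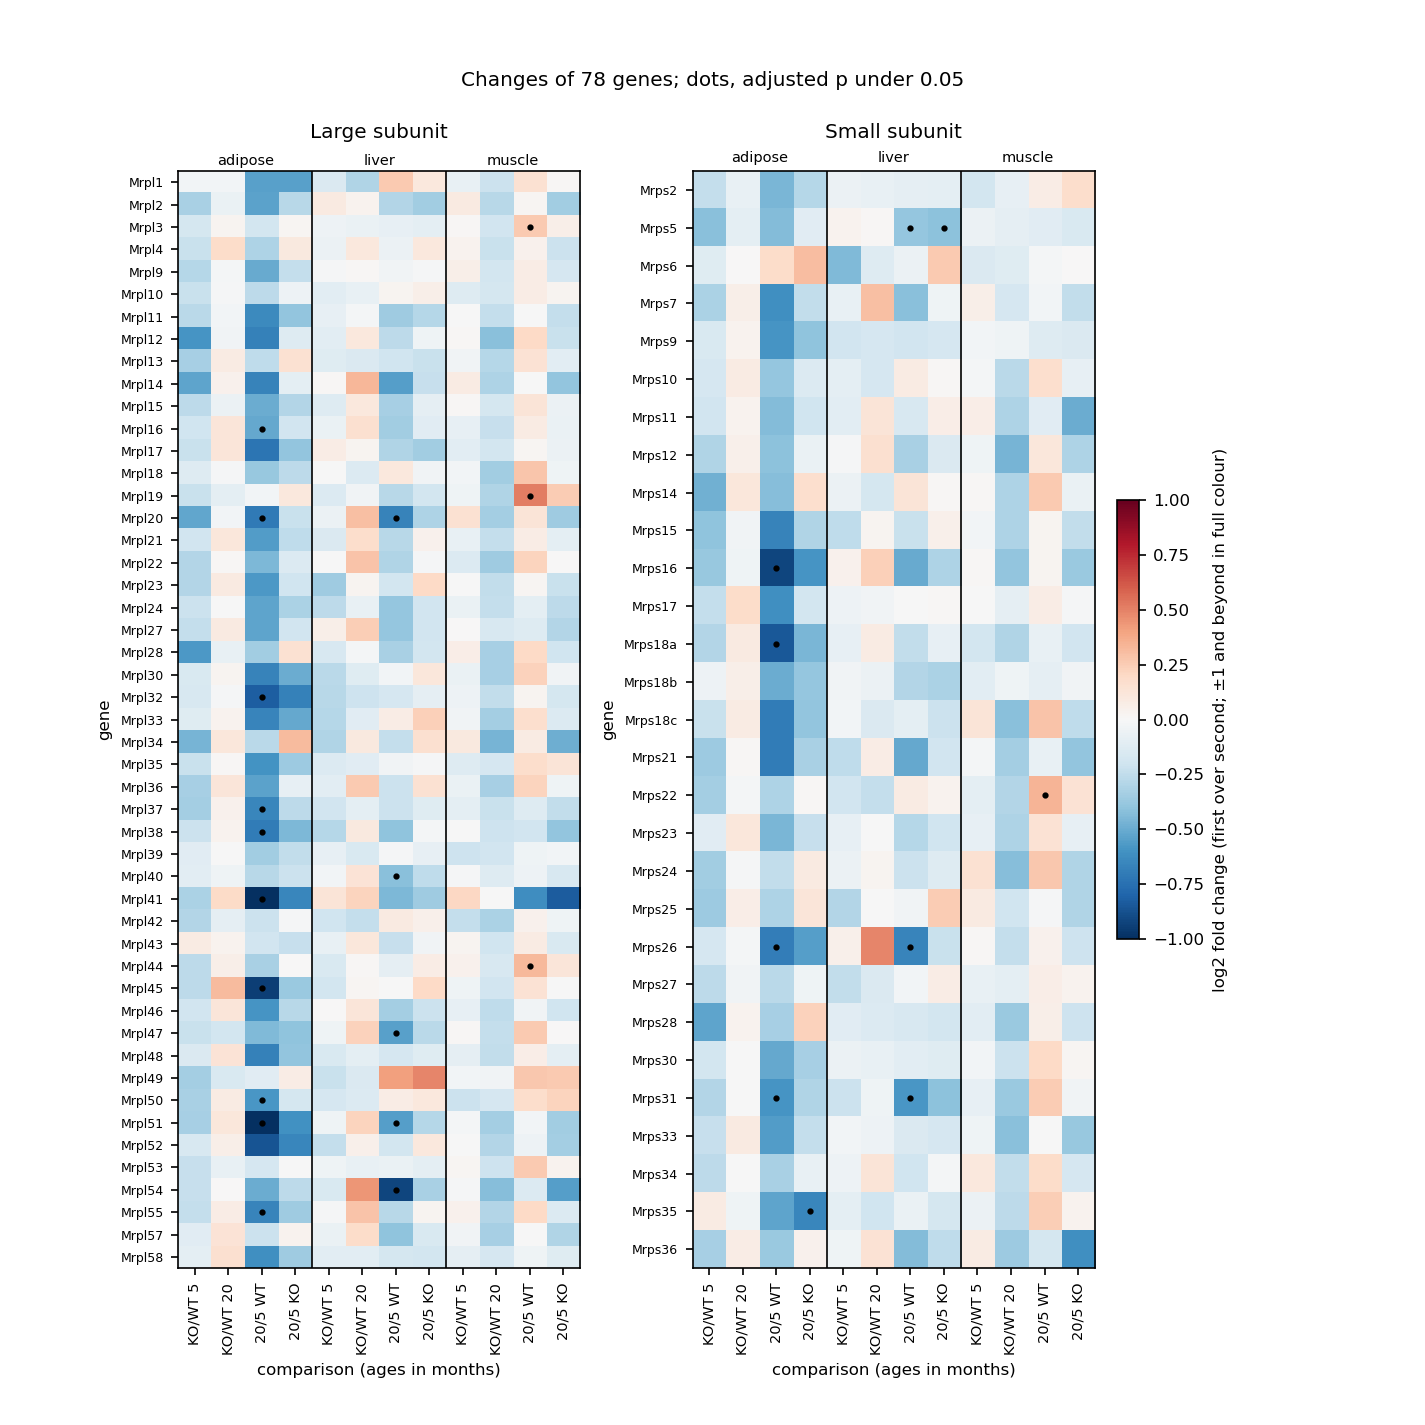
Log2 fold change of each of the 78 members (rows; left, large subunit; right, small subunit) in 12 comparisons within tissues (columns; KO against WT at 5 and 20 months, and 20 against 5 months in WT and KO); colours run from -1 (blue) to 1 (red) and dots mark an adjusted p under 0.05. Adipose ageing in WT mice is blue for 77 of 78 genes with 14 dots, while the columns of KO against WT hold no dot.

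Ageing of WT adipose tissue gave the most calls among comparisons within a tissue. 14 of 78 members fell between 5 and 20 months and none rose (17.9%, against 3.36% of all genes called lower). They were 10 of the large subunit (Mrpl41, Mrpl51, Mrpl45, Mrpl32, Mrpl20, Mrpl38, Mrpl55, Mrpl37, Mrpl50 and Mrpl16) and 4 of the small (Mrps16, Mrps18a, Mrps26 and Mrps31). Values follow for the 5 with the largest change. Of all members 77 of 78 were lower, with Mrps6 (0.19) as the exception (median -0.53 in the large and -0.46 in the small subunit, against 0.01 over all genes). Members were also classed by the number in their symbol as mitochondrion-specific or shared with bacteria, with Mrps18a and Mrps18b placed in the former. Sequence homology was not examined, so these classes are approximate. Of the fallen genes, 10 were of the former and 4 of the latter class, with medians of -0.50 over 36 and -0.53 over 42 genes.

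Mrpl41, a mitochondrion-specific protein of the large subunit, had 16, 24.5 and 50.9 CPM (lowest, median and highest) at 5 months and 9.89, 12.7, 12.8, 13.3 and 13.3 at 20 months. The ages did not overlap, and the log2 fold change was -1.16 (SE 0.347, limma adjusted p = 0.0370). Mrpl51 had 29.5, 49.5 and 63.4 CPM at 5 months and 19.1, 22, 22.7, 25.9 and 26.0 at 20 months, and its log2 fold change was -1.05 (limma SE 0.297, adjusted p = 0.0298). Mrpl45, which holds the ribosome to the inner membrane, had 22.8, 34.6 and 42.5 CPM at 5 months and 15.5, 15.5, 16.6, 17.1 and 17.2 at 20 months. It fell by 0.94 (SE 0.228, adjusted p = 0.0130), again without overlap. Mrps16 fell from a median of 17.6 (10.2 to 25.8) to 8.74 CPM (7.76 to 9.60), by 0.92 (SE 0.283, adjusted p = 0.0412). Mrps18a fell from a median of 22 (19.2 to 25.7) to 12.8 CPM (9.43 to 13.0), by 0.85 (SE 0.207, adjusted p = 0.0138). In the 5-month group the lowest value of each of these 5 genes was that of W5F5299. The ages did not overlap for 13 of 78 members, all lower (16.7%, against 4.65% of all genes lower without overlap).

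Of the members listed by name, Mrpl12 (-0.68, adjusted p = 0.0672), Mrps18c (-0.70, adjusted p = 0.103), Mrpl58 (-0.61, adjusted p = 0.115), Mrps30 (-0.51), Mrps18b (-0.50), Mrps12 (-0.41), Mrps36 (-0.37) and Mrpl3 (-0.18) did not pass. That list was made with earlier results of these data known. The number called depended on single libraries. It was 37 without W5F5299, the 5-month library with epididymal markers at 958 CPM, and 6.55% of all genes were then called lower. It was 3 without W18F22, W18F23, W18F25 or W5F5042 (1.08% to 1.31% of all genes), 4 without W5F5041 (1.39%), and 7 without W18F21, W18F24 or W5F5277 (1.77% to 2.5%). With that epididymal library and the 3 KO ones left out it was 55, against 11% of all genes called lower. Without the Xist libraries it was 5, against 1.23% of all genes.

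Summed adipocyte markers were 12369 to 18607 CPM in WT adipose tissue at 20 months, against 15603 to 30538 at 5 months, and macrophage markers 1257 to 2700 against 1187 to 2030. The summed hepatocyte list had a median of 369 CPM at 20 months (155 to 549), against 3103 at 5 months (480 to 4890). Alb, a gene of that list, overlapped between ages, at 3.37 to 132 CPM at 20 months and 12.4 to 52.7 at 5 months. Its mean was not lower at 20 months, so the fall of the sum came from other genes of the list. T-cell markers were at 20.3 to 75 CPM against 6.71 to 17.9, without overlap. For B and plasma cells the medians were 154 and 62.5 CPM, and for mesothelium 221 and 392. The part of these markers in the result was not tested. The length slope moved with age as well, from -0.0954 ± 0.132 (SD, n = 6) at 5 months to 0.135 ± 0.0210 (n = 5) at 20 months in WT adipose tissue. With the slope as a covariate no member was called, 48 of 78 were lower and the median was -0.04. The ageing median thus moved from -0.52 to nearly 0 under this covariate, and the KO median at 5 months from -0.24 to -0.23. A covariate moves a comparison through the difference in its group means. Slope and age differed together in these libraries, while the 5-month KO libraries averaged -0.0889, close to WT. The KO median could therefore hardly move, so the covariate cannot set the comparisons against each other. The difference between them was not tested.

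**Figure D4:**
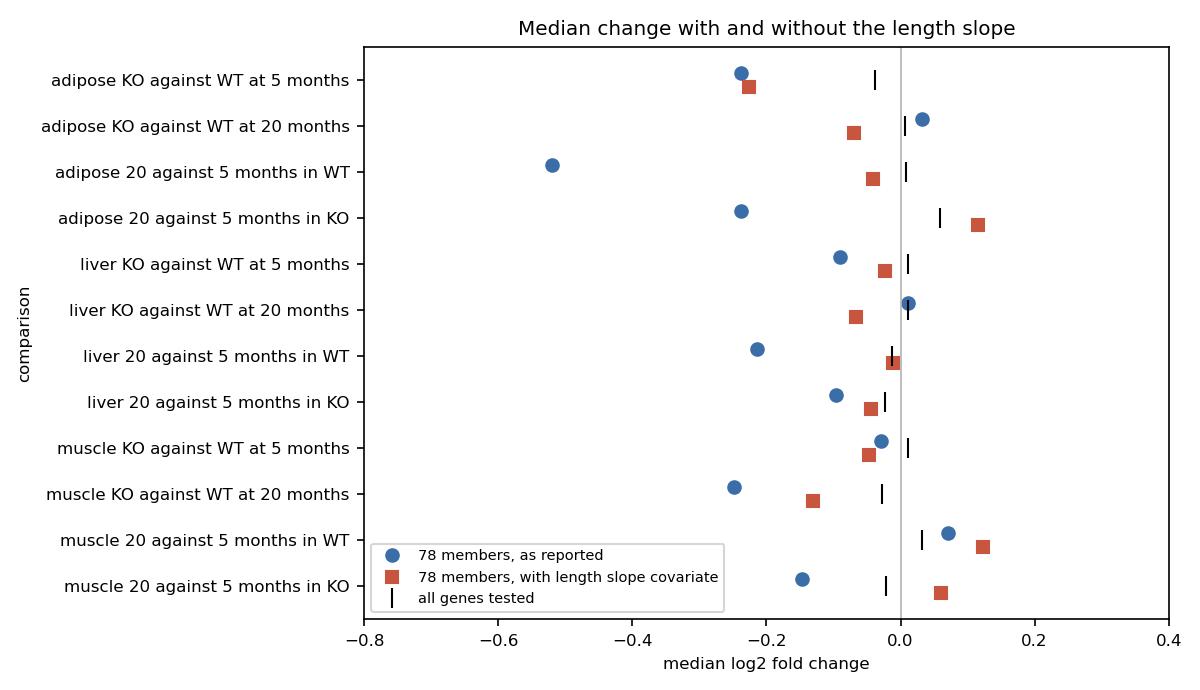
Median log2 fold change over the 78 members (x axis) in 12 comparisons within tissues (y axis), as reported (circles) and with each library's length slope as a covariate (squares); ticks give the median over all genes tested. Circle and square lie farthest apart for ageing of WT adipose tissue (-0.52 as reported and -0.04 with the covariate). For KO against WT in 5-month adipose tissue they lie at -0.24 and -0.23. There the mean slopes were close (-0.0954 in WT and -0.0889 in KO libraries), so the covariate could hardly move the median.

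In KO adipose tissue, 1 of 78 members fell with age (1.28%, against 3.75% of all genes called lower), and the median was -0.24 with 62 lower. That member was Mrps35, a small-subunit protein, with 11.9, 18 and 28.1 CPM at 5 months and 8.34, 8.97, 9.21, 12.8 and 17.3 at 20 months (-0.65, SE 0.212, limma adjusted p = 0.0442). The ages overlapped. The call was lost without K18F26, K18F29, K18F30, K5F4284 or K5F4285, and without K5F5218 10 members were called lower (12.8%, against 7.54% of all genes). Without K5F5118 the single called member was a rise (9.63% of all genes were called higher). With the length slope as a covariate the direction turned: 10 members were called higher (12.8%, against 9.67% of all genes called higher) and none lower, with Mrpl34 (0.76, SE 0.168), Mrps28 (0.59, SE 0.123), Mrpl28 (0.59, SE 0.152) and Mrps14 (0.58, SE 0.102) highest. These include 3 of the 4 genes that were lower in KO mice at 5 months under the same covariate, and both comparisons share the 5-month KO libraries.

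In WT liver, 8 of 78 members fell with age and none rose (10.3%, against 4.36% of all genes called lower). Mrpl54 had 19.1, 27.5 and 40.2 CPM at 5 months and 11.5, 12.6, 15.8, 16 and 17.6 at 20 months. It fell by 0.91 on the log2 scale (SE 0.187, limma adjusted p = 0.0053), with no overlap. Mrpl20, a protein of the large subunit with a bacterial counterpart, had 37.4, 46.4 and 55.3 CPM at 5 months and 25.1, 25.4, 28.6, 32.3 and 32.6 at 20 months (-0.67, SE 0.128, adjusted p = 0.00342). Mrps31 had 35.4, 45 and 59.3 CPM at 5 months and 24.1, 25.6, 32.0, 32.7 and 34.9 at 20 months (-0.58, SE 0.136, adjusted p = 0.0128), also without overlap. Mrps26 (-0.66, adjusted p = 0.0232), Mrpl51 (-0.55, adjusted p = 0.0413), Mrpl47 (-0.54, adjusted p = 0.0488), Mrpl40 (-0.42, adjusted p = 0.0385) and Mrps5 (-0.39, adjusted p = 0.0209) fell too. Groups did not overlap for 4 members, all lower (5.13%, against 2.79% of all genes lower without overlap).

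The fall in liver was smaller than in adipose tissue by the median member (-0.21, 68 of 78 lower), a difference that was not tested. It also depended on scaling: rescaled to equal totals, 1 member was higher and 2 were lower, and the median was -0.01, or -0.17 relative to the median of all genes (0.17). The count was 16 without W5L5299 and 13 without W5L5277. It was 3 without W18L04 or W18L05, 4 without W18L02, W18L03 or W5L5042, and 5 without W5L5005 or W5L5041. The share of all genes called lower was 6.35% and 7.55% in the first 2 of these fits and 2.04% to 3.76% in the others. Without the Xist libraries the count was 2 (Mrpl20 and Mrpl54), against 1.8% of all genes. Macrophage markers had a median of 225 CPM at 20 months and 443 at 5 months, and B and plasma cell markers of 18.3 and 7.52, and their part was not tested. The length slope averaged -0.0574 ± 0.157 (n = 6) at 5 and 0.0620 ± 0.0374 (n = 5) at 20 months. With it as a covariate Mrpl54 (-0.60), Mrpl20 (-0.51) and Mrps31 (-0.48) stayed lower and Mrps14 was higher (0.40), and the median was -0.01. For this fit and for the rescaled fit, the share of all genes called is not given here, so their counts are not set against it.

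4 members fell with age in both WT adipose tissue and WT liver, 4 of the 14 and 4 of the 8: Mrpl20, Mrpl51, Mrps26 and Mrps31. Of all genes, 3.36% were called lower in adipose tissue and 4.36% in liver. The share called lower in both is not given here, so the overlap cannot be read as particular to the members. Mrpl20 had 23.9, 44.0 and 53.0 CPM in adipose tissue at 5 months and 21.6, 22.3, 24.8, 25.1 and 27.4 at 20 months, with overlap through W5F5299. Mrps26, a mitochondrion-specific small-subunit protein, had 18.9, 24.3 and 33.0 CPM in adipose tissue at 5 months and 12.7, 14.3, 15.8, 15.9 and 16.9 at 20 months, without overlap. At 5 months, 5 WT mouse numbers occurred in both tissues. Of the sequences shown above, Mrpl20 carries the E-box and no other searched motif, while Mrpl51 and Mrps26 carry ETS cores.

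**Figure D5:**
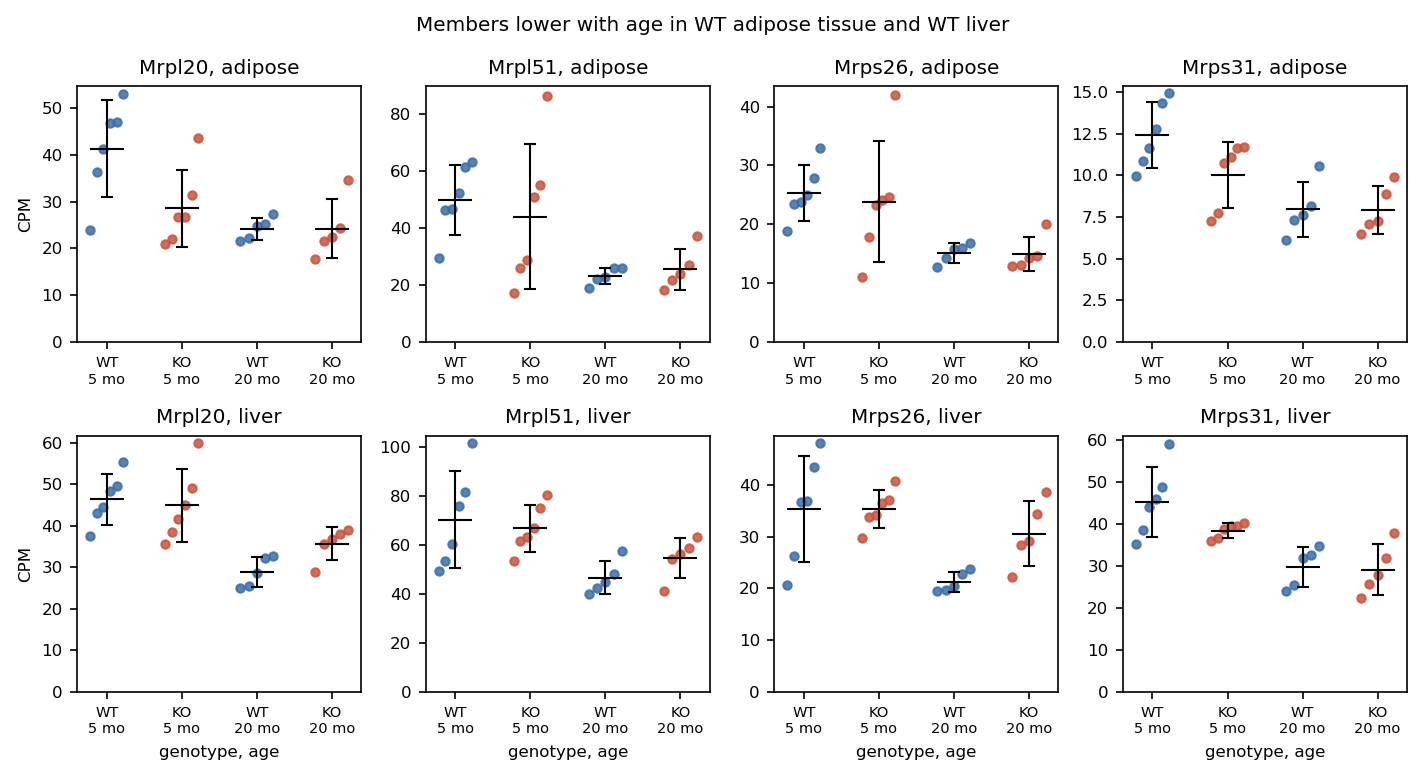
CPM per library of the 4 members that fell with age in WT adipose tissue (top) and WT liver (bottom), by genotype and age (mo, months); points are libraries and bars the mean and 1 SD. WT values at 20 months lie low in each panel, for Mrpl20 in liver at 25.1 to 32.6 against 37.4 to 55.3 CPM at 5 months.

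In KO liver 1 of 78 members fell with age (1.28%, against 1.31% of all genes called lower). Mrps5, a small-subunit protein with a bacterial counterpart, had 40.6, 44.5 and 54.0 CPM at 5 months and 31.8, 32.1, 34.4, 34.6 and 37.3 at 20 months, with no overlap (-0.41, SE 0.0983, limma adjusted p = 0.0277). In WT liver its change was of similar size (-0.39, SE 0.0983). The KO call was lost without K18L06, K18L07, K18L09, K18L10, K5L4285 or K5L5116, and 2 members were called without K18L08 (both lower) or K5L5218 (1 higher, 1 lower). It was also lost after rescaling to equal totals, and was kept with the length slope as a covariate (-0.37, adjusted p = 0.0132).

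In WT muscle 4 of 78 members rose with age and none fell, 5.13%, a smaller share than the 10.9% of all genes called higher. Mrpl19 had 13.0, 15.0 and 20.1 CPM at 5 months and 20.8, 20.8, 22.5, 23.2 and 26.3 at 20 months, without overlap (0.51, SE 0.138, limma adjusted p = 0.0171). Mrpl3, close to the peptidyl transferase centre, had 46.2, 51.8 and 54.4 CPM at 5 months and 57.4, 58.3, 58.4, 62.6 and 70.3 at 20 months, also without overlap (0.26, SE 0.0812, adjusted p = 0.0314). Mrps22 (0.34, SE 0.112, adjusted p = 0.0394) and Mrpl44 (0.33, SE 0.110, adjusted p = 0.0444) rose with overlap. The median member was at 0.07, against 0.03 over all genes. The count was 0 without W18S66, 1 without W18S42, W5S5042 or W5S5299, 2 without W18S45, W5S5007 or W5S5041, and 0 without the Xist libraries. In these fits 3.3% to 11% of all genes were called higher. Macrophage markers had a median of 93.4 CPM at 20 months (51.1 to 147) and 204 at 5 months (98.4 to 383). Slow-fibre markers had medians of 1507 (778 to 1820) and 3528 (719 to 6668). Both lists overlapped between ages, and their part was not tested. With the length slope as a covariate 15 members rose (19.2%, against 13.4% of all genes called higher), among them Mrps24 (0.40), Mrps18c (0.37), Mrps14 (0.34) and Mrpl53 (0.33).

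In KO muscle no member passed (5.57% of all genes did, in either direction). The median was -0.15 with 61 of 78 lower, and the smallest adjusted p values were those of Mrpl38 (-0.39, adjusted p = 0.0503), Mrps36 (-0.62, adjusted p = 0.0623), Mrps11 (-0.49, adjusted p = 0.0627) and Mrpl34 (-0.49, adjusted p = 0.0720). Mrps36 had 41.6, 42.6, 45.6 and 54.8 CPM at 5 months and 22, 26.2, 30.7, 32.7 and 39.2 at 20 months, without overlap. DESeq2 called 5 members lower (6.41%, against 3.73% of all genes) and edgeR's quasi-likelihood test 1 (1.28%, against 1.9%). Summed markers of slow and oxidative fibres were at 1252 to 2711 CPM at 20 months and 2936 to 8705 at 5 months. Brown-adipocyte markers, which include genes that muscle also expresses, such as Cox7a1 and Cox8b, were at 435 to 597 and 668 to 931 CPM. Fast-muscle markers were at 139277 to 157278 and 163102 to 167861 CPM. None of these lists overlapped between ages, and their part in the result was not tested. Under the length-slope covariate the median was 0.06, and none was called.

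Other genes of mitochondrial translation are described by lists. Of 5 mitoribosome proteins with other names (Dap3, Ptcd3, Aurkaip1, Chchd1 and Gadd45gip1), none was called in any comparison within a tissue, with medians of -0.33 for KO against WT in 5-month adipose tissue and -0.54 for ageing of WT adipose tissue. In ageing WT adipose tissue, 3 of 25 assembly factors fell (Ddx28, an RNA helicase, by 1.11; Mterf4 by 0.68; Ngrn by 0.63), as did 3 of 17 mitochondrial aminoacyl-tRNA synthetases (Lars2 by 1.85, Ears2 by 0.58 and Rars2 by 0.47). In the same comparison 2 of 10 factors of mitochondrial DNA expression fell (Ssbp1, a single-strand DNA binding protein, by 0.47, and the helicase Twnk by 0.40), and 0 of 11 translation factors were called. Of all genes there, 3.36% fell. In ageing WT muscle, where 10.9% of all genes rose, 4 of 25 assembly factors rose (among them Gtpbp10, 0.83, and Mrm1, 0.78), and 4 of 10 factors of mitochondrial DNA expression rose (among them Tfam, which packages mitochondrial DNA, 0.70). Of the synthetases there, 5 of 17 rose (Hars2, 0.57, and Nars2, 0.57) and 2 fell (Lars2, by 0.91, and Tars2, by 0.29). Of 8 nuclear regulators of mitochondrial genes, 2 rose (Gabpa, the ETS factor named above, by 0.48, and Ppargc1b by 1.43) and 1 fell (Pprc1, by 0.58).

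Set beside the members, nuclear oxidative phosphorylation subunits and cytosolic ribosomal proteins had medians of the same sign in the following comparisons within tissues. With age in WT adipose tissue, 16 of 81 oxidative phosphorylation genes fell (median -0.63) and 11 of 76 cytosolic ribosomal protein genes (median -0.71), against 14 of 78 members (median -0.52). In WT liver the counts were 21 of 80 (-0.33) and 43 of 76 (-0.51), against 8 of 78 (-0.21). The largest falls there were Atp5k (-1.72) and Rps29 (-1.83). For KO against WT in 5-month adipose tissue 0 of 81 and 0 of 76 passed, with medians of -0.36 and -0.15 beside -0.24 for members. In 20-month muscle 0 and 0 passed, with medians of -0.34 and -0.26 beside -0.25. Between tissues they parted: for muscle against liver the medians were 0.90 for oxidative phosphorylation genes, -0.40 for cytosolic ribosomal protein genes and -0.01 for members. Differences between lists were not tested. The 13 messenger RNAs of mitochondrial DNA, which the mitochondrial ribosome translates, were listed at 0 in every library, so their levels could not be set beside those of the members.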

How the data were processed

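The authors deposited 1 table with a column of signal per library, named CPM per the file header and made with CLC software, as the name and headers of the table say. Within a library each value was a whole number of reads times a factor (100% of values within 0.01 of a whole read), and column sums differed, as the report gives, so the deposited CPM served as a normalized signal and the recovered read counts served edgeR and DESeq2. The genome builds GRCm38.p6 and mm10 are given per the submitters' processing notes, and the aligner is not given in the sources used here. The library kit keeps strand, but strand use in counting is not stated.

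Differences were fitted on log2(CPM + 1) with limma 3.58.1 (R 4.3.3) and a mean-variance trend, on genes that exceeded 1 CPM in a number of libraries no lower than the size of the smallest group fitted. One fit per tissue held its 4 groups, and one fit held the 3 tissues of WT mice at 5 months. Benjamini-Hochberg adjustment ran over all genes tested, with a threshold of 0.05. A fold change on this scale understates that of low genes. Alternatives were a pseudocount of 0.1, no filter, rescaling, edgeR 4.0.16, DESeq2 1.42.0, each library left out, and, added after seeing the data, the length slope and leaving out libraries with epididymal transcripts. The scripts were tested on simulated data. Members and lists were chosen with earlier results of these data known. Values are given for 9 members by name, for called members (up to 10, otherwise the 5 largest changes each way), and for the 2 with the smallest p per subunit where none was called. Any other member was named after its values were seen. Equal mouse numbers across tissues at 5 months were taken as the same animal. In WT mice, deviations of the same number correlated at a mean of 0.204 (muscle and liver, 5 mice), 0.149 (adipose tissue and liver, 5 mice) and 0.158 (muscle and adipose tissue, 4 mice). In KO mice these means were 0.125 (4 mice), 0.039 (6 mice) and 0.079 (4 mice), in the same order. Single values went down to -0.075 in WT and -0.173 in KO mice, both for adipose tissue and liver.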

Additional observations from a re-analysis of the deposited data

Results flagged for a closer look

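In 11 of 132 sets of 4 to 6 libraries (8.33%), 1 library lay far from the others of its group by Dixon's criterion. Chance marks about 1 in 20 groups, and members of a library are not independent. K18F27 stood high among 20-month KO adipose libraries in the large-subunit level (4.581, group median 3.984), Mrpl12 (40.62 CPM, median 20.94), Mrpl58 (19.69 CPM, median 12.63) and Mrps36 (14.47 CPM, median 8.515). K5F5118 stood high among 5-month KO adipose libraries in Mrpl58 (48.22 CPM, median 15.19), Mrps36 (27.53 CPM, median 7.108), Mrps12 (37.83 CPM, median 13.1) and Mrps18c (35.5 CPM, median 13.91). W5F5299 stood low among 5-month WT adipose libraries in the large-subunit level (4.011, median 4.625) and the small-subunit level (3.932, median 4.55). W18S42 stood high among 20-month WT muscle libraries in Mrpl58 (46.12 CPM, median 29.3). No member had a difference of the KO effect between ages that passed limma's test.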

How the results depend on the processing

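Members called depended on processing chiefly in the ageing comparisons. The share of all genes called moved between fits as well. For ageing of WT adipose tissue, 3.36% of all genes were called lower in the main fit and 11% without epididymal libraries. The counts below stand without the share for their fit, so their moves cannot be read as particular to the members. For ageing of WT adipose tissue (14 called) the count was 6 without the filter, 22 with edgeR, 29 with DESeq2, 5 without the Xist libraries, 55 without epididymal libraries, 0 with the length slope, and 3 to 37 when 1 library was left out. For KO adipose tissue (1 called) it was 0 without the filter, 4 after rescaling, 5 with edgeR, 11 with DESeq2, 3 without Xist libraries (1 higher and 2 lower), 21 without epididymal libraries, 10 with the length slope (all higher, a reversal), and 0 to 10 with 1 library left out, with the direction reversed without K5F5118 (1 higher). For WT liver (8) it was 5 without the filter, 3 after rescaling, 2 without Xist libraries, 4 with the length slope and 3 to 16 with 1 library left out. For KO liver (1) it was 0 after rescaling and 0 to 2 with 1 library left out. For WT muscle (4 higher) it was 2 without the filter, 0 without Xist libraries, 15 with the length slope and 0 to 6 with 1 library left out. For KO muscle (0) it was 1 with edgeR, 5 with DESeq2 and 0 to 1 with 1 library left out. Of KO against WT, adipose tissue at 5 months (0) gave 3 without Xist libraries and 4 with the length slope, and muscle at 20 months (0) gave 1 with DESeq2. Between tissues, rescaling gave 42 for adipose tissue against liver, mostly higher and so reversed, and 40 for muscle against adipose tissue. The paired fit, with the mouse number as a replicate block, gave 46 members for muscle against liver, 59 for adipose tissue against liver and 62 for muscle against adipose tissue, and changed no call count by over 1.5 times. Causes of these moves were not tested. For single named members, 1496 of the alternative values kept their side of the threshold, 138 lost and 10 gained the call. Direction was compared only where the main or the alternative fit called the member, and 0 of these values reversed. It was not compared for members called in neither fit. The lowest member had 83 reads in a library, which limits the precision of low values.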
